A study of Mus musculus with 18 samples.

Results

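The nuclear and the cytoplasmic RNA of intact soleus myofibers were compared here on 6 of the 18 arrays of a study of 3 mouse muscles, which were taken by their labels as 3 arrays of soleus nuclei and 3 of soleus cytoplasm. The study asked where in the fiber long non-coding RNAs (lncRNAs) are located, and it fractionated fibers of soleus, of tibialis anterior (TA) and of extensor digitorum longus (EDL). Myofibers are single cells with many nuclei, and soleus is a postural muscle rich in slow, oxidative fibers. Most messenger RNAs leave the nucleus after splicing and act in the cytoplasm, whereas some lncRNAs such as Xist, Malat1 and Neat1 are known to stay at chromatin or in nuclear bodies. A nuclear fraction also holds transcripts that are still being made or spliced.

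All 6 samples were from CD1 female mice aged 3 months. Fibers were freed with collagenase, 5 to 10 intact ones were pooled for each sample, and they were lysed in a buffer with the detergent Triton X-100. The nuclei were pelleted at low speed, and the supernatant served as the cytoplasmic fraction, so that it held whatever did not sediment. By the labels, the nuclei and the cytoplasm of a replicate number came from the same 2 mice. Each array carried 55681 probe names of 60 bases besides the controls. Values are log2 of quantile-normalized intensity, and a difference is nuclei minus cytoplasm in log2 with its standard error (SE) from limma. A probe was called where limma's p adjusted by the method of Benjamini and Hochberg was under 0.05, and every p of a single probe below is of this kind. Quantile normalization sets every array to the same distribution, so a difference is relative to the bulk of the probes and says nothing of the total amount of RNA in a fraction.

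In soleus 81.9% to 87.1% of the spots had a positive signal and 58.6% to 68.1% were well above background, and precision is limited by the number of arrays. The nuclear arrays correlated across probes at r of 0.990, the cytoplasmic arrays at 0.939 to 0.963, and the median SD between arrays was 0.115 in nuclei and 0.386 in cytoplasm. Where a probe was printed on several spots, the nuclear arrays differed by an SD that was 0.574 times that between the spots of 1 array. The nuclear arrays were kept as 3 samples as labelled, and the main counts are also given with their mean taken as 1 sample. Soleus cytoplasm 2 stood apart: it correlated with the nuclei at 0.925, against 0.866 to 0.876 for cytoplasm 1 and 3, and counts without it are given below. The soleus cytoplasm lay on slide 1 and the soleus nuclei on slide 2, so that fraction and slide cannot be told apart. Myh7, the slow myosin heavy chain that marks slow fibers, measured 14.97, 14.99 and 15.03 in nuclei and 14.08, 14.78 and 14.12 in cytoplasm, well above background on all 6 arrays.

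The sequences of 14 probes are given because the non-coding RNAs with large differences in either direction rest on them, with positions on mouse build mm9 as the array gives them. Of the nuclear ones, the Xist probe lay at chrX:100662174-100662233 and the probe of the XIST region at chrX:100655959-100656018, both on the minus strand. The Malat1 probe (chr19:5795713-5795772) overlapped that of a larger region on the same strand (chr19:5795752-5795811), and another probe (chr19:5797294-5797353) read the opposite strand. The Neat1 probe (chr19:5842564-5842623) overlapped that of the NEAT1 region (chr19:5842594-5842653). The other probes were of Kcnq1ot1 (chr7:150434020-150434079, minus strand), Meg3 (chr12:110809678-110809737, plus strand) and Dnm3os (chr1:164148400-164148459, plus strand). Capitals mark the run of bases shared by a pair of printed probes, 21 for Malat1 and 30 for Neat1.
Xist: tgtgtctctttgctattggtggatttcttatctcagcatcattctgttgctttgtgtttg
XIST region: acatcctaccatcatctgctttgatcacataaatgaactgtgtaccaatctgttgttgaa
Malat1: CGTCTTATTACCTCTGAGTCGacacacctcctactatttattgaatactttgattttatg
Malat1 overlapping region: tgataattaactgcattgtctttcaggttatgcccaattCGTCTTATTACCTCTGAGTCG
Malat1 opposite-strand region: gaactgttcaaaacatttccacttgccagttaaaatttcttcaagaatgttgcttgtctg
Neat1: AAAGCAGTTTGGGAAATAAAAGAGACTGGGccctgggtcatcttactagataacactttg
NEAT1 region: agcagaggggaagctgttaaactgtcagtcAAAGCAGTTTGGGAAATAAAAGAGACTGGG
Kcnq1ot1: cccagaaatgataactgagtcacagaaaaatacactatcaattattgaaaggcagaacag
Meg3: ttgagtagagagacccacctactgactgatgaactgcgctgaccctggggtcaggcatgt
Dnm3os: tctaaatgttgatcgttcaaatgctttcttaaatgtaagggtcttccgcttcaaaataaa

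Among lincRNA regions with signal well above background on at least 1 array of each fraction, which the array names by position, these 4 were among the 5 with the largest differences towards cytoplasm. Their probes lay at chr16:3115830-3115889 (minus strand), chr16:3350651-3350710 (plus strand), chr5:15168445-15168504 (plus strand) and chr7:67003284-67003343 (plus strand). The pair on chromosome 16 came from separate regions and shared a run of 12 bases, in capitals.
chromosome 16 region, minus strand: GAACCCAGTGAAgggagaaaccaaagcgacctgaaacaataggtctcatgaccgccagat
chromosome 16 region, plus strand: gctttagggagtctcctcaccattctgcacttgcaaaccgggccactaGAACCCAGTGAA
chromosome 5 region, plus strand: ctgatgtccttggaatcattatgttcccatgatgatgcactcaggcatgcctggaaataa
chromosome 7 region, plus strand: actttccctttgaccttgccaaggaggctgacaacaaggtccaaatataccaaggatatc

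The fractions of soleus fibers differed at 17989 of 43620 probes tested (41.2%), of which 8339 were higher in nuclei (19.1% of those tested) and 9650 were higher in cytoplasm (22.1%). Without soleus cytoplasm 2 the count was 20702, and with the nuclear arrays taken as 1 sample it was 1724, of which 1721 were also called in the full comparison. The fractions did not overlap at 24664 probes (56.5%). The split between the directions depended on the scaling. Of the calls 46.4% were higher in nuclei, against 34.0% after scaling to the 75th percentile of each array and 92.2% without scaling. Over all probes the median difference went from -0.01 to -0.22 and to 0.96. The share was 64.0% where signal well above background was required.

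Relative to the bulk of the probes, coding probes leaned towards nuclei, and those of lincRNA regions and annotated lncRNAs towards cytoplasm. Of 24661 coding probes, the nuclei were higher at 5523 and the cytoplasm at 4308, with a median difference of 0.15. Of 12567 in lincRNA regions, 1912 had the higher value in nuclei and 3564 in cytoplasm, with a median of -0.26. Annotated lncRNAs had 160 and 431 of 1328 and a median of -0.40, while pseudogenes had 125 and 208 of 932 and a median of -0.03. Signal well above background in all 3 nuclear arrays and in 0 of the cytoplasmic ones was found at 2199 probes, 1217 of them coding and 705 of lincRNA regions. The opposite was found at 791 probes, 353 coding and 238 of lincRNA regions. Whether a spot is well above background is read before normalization, and the nuclear arrays were brighter. The 75th percentile of their processed signal was 279 to 300, against 119 to 144 in soleus cytoplasm. The part of this brightness in these counts was not tested.

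**Figure D1:**
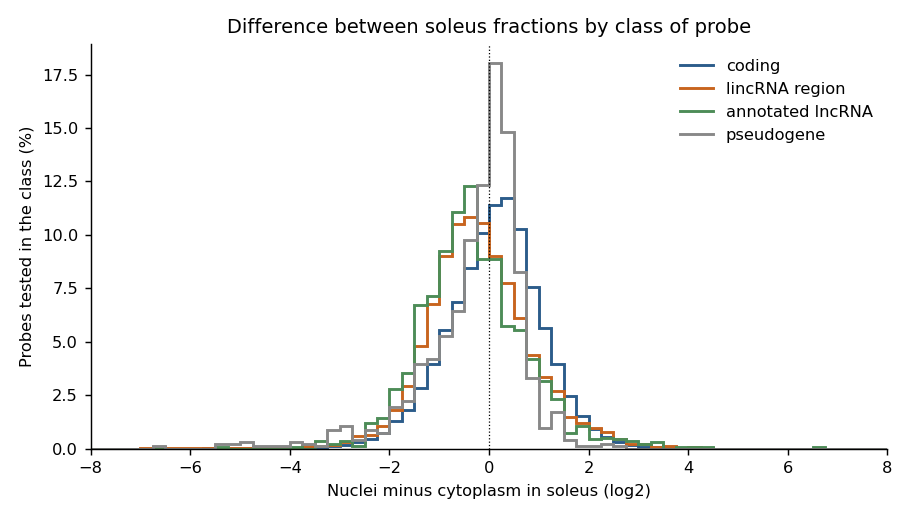
Share of the probes tested in each class (y axis, %) by the difference of soleus nuclei minus cytoplasm (x axis, log2). The coding curve is centred to the right of 0 (median 0.15) and those of lincRNA regions (-0.26) and annotated lncRNAs (-0.40) to the left, while every class reaches into both directions.

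Some of the lncRNAs known to stay in the nucleus, among them Xist, Malat1, Neat1 and Kcnq1ot1, had large nuclear differences. Of 13 tested, 7 were higher in nuclei and 0 in cytoplasm by limma (2 at an unadjusted p under 0.05). Their median was 0.92, against 0.02 over all 24643 genes tested by their brightest probe, of which 40.8% were called, 19.1% higher in nuclei and 21.7% in cytoplasm. Without soleus cytoplasm 2, 7 were higher in nuclei and 4 in cytoplasm, namely Tsix, Airn, Snhg11 and Gnasas1. With arrays scaled to the 75th percentile the counts were 7 and 3. With the nuclear arrays as 1 sample 4 were called, all towards nuclei. Under that setting limma called 0 genes in 21 of the 31 gene lists examined, where 58 of 584 genes passed an unadjusted p under 0.05.

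Xist, which coats the inactive X chromosome of female cells, measured 10.78, 10.76 and 10.92 in nuclei and 5.63, 4.27 and 2.43 in cytoplasm. The nuclear arrays lay together and above every cytoplasmic array, of which 1 was well above background. The difference was 6.71 ± 0.81 (SE, limma's adjusted p = 1.95e-05), with 2 of the cytoplasmic values not well above background. All 6 tested probes of the locus were higher in nuclei, by 4.23 to 6.91. At the XIST probe with the largest of these, 0 cytoplasmic arrays were well above background, and the level in nuclei was at least 37.6-fold higher (measured means 9.53 and 2.62, adjusted p = 1.98e-06).

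Malat1, which sits in nuclear speckles, measured 9.37, 9.39 and 9.28 in nuclei and 6.58, 5.07 and 6.07 in cytoplasm, a difference of 3.44 ± 0.53 (adjusted p = 0.000145). Neat1, the scaffold of paraspeckles, measured 13.47, 13.36 and 13.48 against 10.79, 10.90 and 10.15, a difference of 2.82 ± 0.23 (adjusted p = 5.8e-07). The groups were apart for both, and both genes lie next to each other on chromosome 19. From base 5795713 to base 5845557 of that chromosome, the nuclei were higher at 32 of 36 probes and the cytoplasm at 0, with a median of 2.65. On the minus strand, from which Malat1 and Neat1 are read, 20 of 20 were called and the median was 3.02, and on the plus strand 12 of 16 with a median of 1.94. The plus-strand probe opposite Malat1 measured 14.22, 14.27 and 14.37 in nuclei and 10.72, 10.59 and 9.95 in cytoplasm, a difference of 3.86 ± 0.36 (adjusted p = 1.98e-06).

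**Figure D2:**
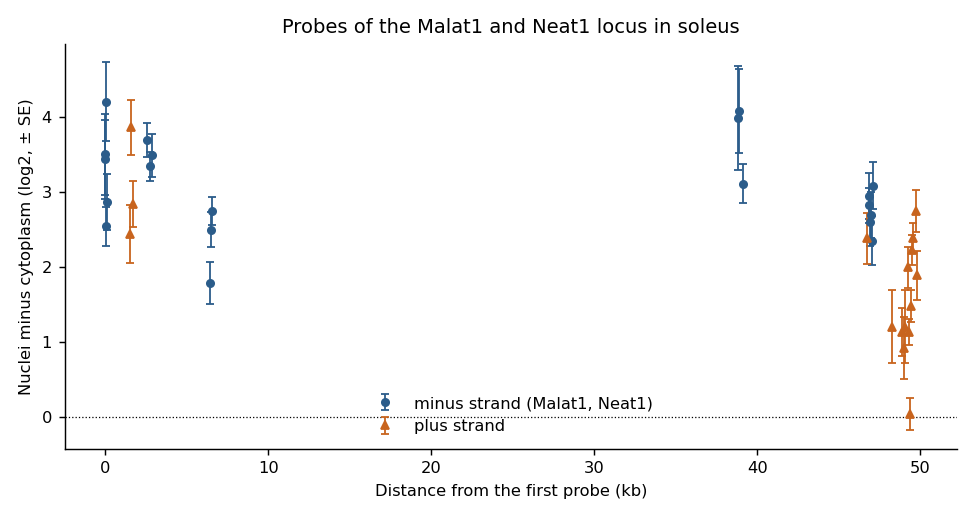
Difference of soleus nuclei minus cytoplasm (y axis, log2, error bars 1 SE) at the 36 tested probes of the Malat1 and Neat1 locus by distance along the chromosome (x axis, kb), with the strands marked apart. Minus-strand probes lie between 1.79 and 4.20, and plus-strand probes between 0.04 and 3.86.

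Kcnq1ot1, an imprinted antisense RNA, measured 7.68, 7.85 and 7.83 in nuclei and 5.47, 4.42 and 4.07 in cytoplasm, a difference of 3.13 ± 0.32 (adjusted p = 4.74e-06). Of its cytoplasmic arrays 1 was well above background. At its locus both probes on the minus strand, from which Kcnq1ot1 is read, were higher in nuclei, and 4 of 5 on the plus strand. Meg3, another imprinted lncRNA, measured 8.52, 8.47 and 8.50 against 5.78, 5.43 and 5.61, a difference of 2.89 ± 0.29 (adjusted p = 3.3e-06), and the fractions did not overlap for either gene. The surrounding Meg3 to Mirg domain was mixed: the nuclei were higher at 22 of its 61 tested probes and the cytoplasm at 7, with a median of 0.44 and a range from -1.53 to 4.16. Ftx, a neighbour of Xist, was higher in nuclei by 0.92 ± 0.20 (adjusted p = 0.00193). Tug1 at its brightest probe was well above background in 0 cytoplasmic arrays and was at least 2.19-fold higher in nuclei (measured means 5.43 and 3.93, adjusted p = 0.000373). The 3 Tug1 probes ranged from 0.59 to 3.12 and 2 were called, while the array's TUG1 region was called at 0 of 5 probes.

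Dnm3os, the host transcript of a microRNA cluster, measured 9.70, 9.56 and 9.70 in nuclei and 5.68, 5.99 and 5.87 in cytoplasm. Its groups lay far apart with little spread, and the difference was 3.81 ± 0.25 (adjusted p = 6.11e-08). A further probe of Airn, the antisense RNA that silences Igf2r, measured 10.32, 10.26 and 10.25 against 7.56, 7.27 and 6.87, a difference of 3.04 ± 0.22 (adjusted p = 1.74e-07), while the 4 probes of that gene ranged from -0.40 to 3.04 and 1 of them was called. Of the lncRNA regions that the array names in capitals, NEAT1 was called at 5 of 5 tested probes, NEAT2, another name of Malat1, at 3 of 3, KCNQ1ot1, on the plus strand, at 4 of 5 and HOTAIR at 2 of 3, all towards nuclei. PINC was higher in cytoplasm at 3 of 4 tested probes and lincP21 at 2 of 5. TUG1, which bears the name of Tug1, was called at 0 of 5, with differences from 0.03 to 0.78. H19 was called at 0 of 7, a number that includes the annotated H19 probes besides those of the region.

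**Figure D3:**
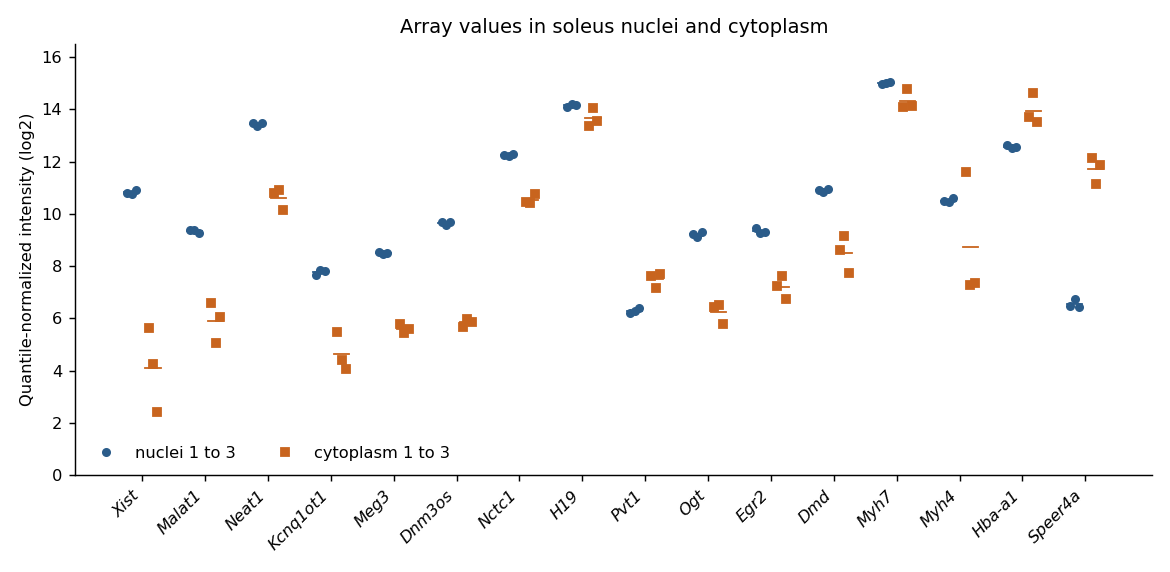
Quantile-normalized intensity (y axis, log2) of 16 probes named in the text in each soleus array, with circles for nuclei, squares for cytoplasm and bars for the means. Nuclear points lie close together for most genes, while cytoplasmic points spread, as for Xist (2.43 to 5.63) and Myh4 (7.29 to 11.59).

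The lncRNAs that the study followed singly did not share a direction. Of 13 tested, 5 were higher in nuclei and 3 in cytoplasm, with a median of 0.67. With the mouse pairs as a block (the replicate number as a term of the fit) the counts were 3 and 1, and without soleus cytoplasm 2 they were 7 and 4. With no scaling limma called 8 in nuclei and 0 in cytoplasm, also at an unadjusted p under 0.05. Nctc1, a muscle lncRNA near H19, measured 12.26, 12.20 and 12.31 in nuclei and 10.44, 10.42 and 10.76 in cytoplasm, and was higher in nuclei by 1.72 ± 0.24 (adjusted p = 5.49e-05). H19, an imprinted lncRNA abundant in muscle, measured 14.08, 14.21 and 14.16 against 13.36, 14.04 and 13.57, a difference of 0.49 ± 0.24 that was not called (adjusted p = 0.11) and was -0.17 with arrays scaled to the 75th percentile. Cytoplasm 2 lay nearest the nuclei, and without it the difference was 0.68 and was called (adjusted p = 0.0302).

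Pvt1, the lncRNA next to Myc, went the other way. Its brightest probe measured 6.20, 6.28 and 6.40 in nuclei and 7.63, 7.17 and 7.70 in cytoplasm, with every cytoplasmic array above every nuclear one, a difference of -1.21 ± 0.25 (adjusted p = 0.00148). With no scaling the difference was -0.08 and not called (adjusted p = 0.796). The other Pvt1 probe had a difference of 1.19 and was not called. Igf2os was higher in cytoplasm, with a difference of -0.73 ± 0.26 (adjusted p = 0.0331, and 0.0663 with the block). So was 2310065F04Rik, a lncRNA near the fast myosin genes, with -0.84 ± 0.31 (adjusted p = 0.0396, and 0.0594 with the block). With no scaling they were at 0.50 and 0.37. Gm16062 was higher in nuclei by 0.90 ± 0.31 (adjusted p = 0.0307) and 1110020A21Rik by 0.70 ± 0.21 (adjusted p = 0.0136, and 0.0648 with the block).

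Host genes of small nucleolar RNAs, whose introns hold the snoRNAs, were split too, with 8 of 21 higher in nuclei and 3 in cytoplasm (6 and 1 with the block) and a median of 0.49. Snhg7 measured 5.87, 5.90 and 5.98 in nuclei and 5.06, 3.96 and 3.39 in cytoplasm, a difference of 1.78 ± 0.32 (adjusted p = 0.000457). Snhg12 was higher in nuclei by 1.43 ± 0.23 (adjusted p = 0.000217) and Snhg1 by 0.98 ± 0.36 (adjusted p = 0.0375, and 0.079 with the block). Snhg8, Snhg17 and Cwf19l1 were higher in cytoplasm, Snhg8 with a difference of -1.25 ± 0.33 (adjusted p = 0.00828). Gas5, a growth-related host gene, depended on the probe: its 3 probes ranged from -0.63 to 2.66, and 1 was called (2.66 ± 0.45, adjusted p = 0.000317).

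A list made up mostly of splicing regulators had the largest share of nuclear calls of the 31 gene lists. The lists and their members were chosen with earlier results of these data known, so this rank is descriptive. Of 36 SR proteins, CLK kinases, hnRNPs and others, 27 were higher in nuclei and 0 in cytoplasm (0 at an unadjusted p under 0.05), with a median of 1.09. The count was 27 with arrays scaled to the 75th percentile, 24 with the block, 29 without soleus cytoplasm 2 and 2 with the nuclear arrays as 1 sample. Ogt, an O-GlcNAc transferase and no splicing regulator, whose transcript is known for a retained intron, measured 9.25, 9.10 and 9.31 in nuclei and 6.44, 6.51 and 5.78 in cytoplasm, a difference of 2.97 ± 0.30 (adjusted p = 4.47e-06). Its groups were clearly apart. Hnrnpa2b1 was higher in nuclei by 2.28 ± 0.40, Luc7l3 by 1.73 ± 0.27, Tra2a by 1.72 ± 0.19, Clk1, a kinase of SR proteins, by 1.70 ± 0.36, Srsf7 by 1.66 ± 0.42 and Son by 1.65 ± 0.22, with adjusted p-values from 7.6e-06 to 0.00572.

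Srsf11, an SR-like protein, showed how far probes of one gene can differ. Its brightest probe measured 11.55, 11.54 and 11.66 in nuclei and 10.60, 10.77 and 10.54 in cytoplasm, a difference of 0.95 ± 0.17 (adjusted p = 0.000521). Another probe measured 8.05, 7.91 and 8.18 against 4.86, 2.37 and 2.29, a difference of 4.87 ± 0.57 (adjusted p = 1.48e-05), the largest among the coding genes ranked. All 3 Srsf11 probes were higher in nuclei.

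Genes of the nuclear envelope and its anchors had 11 of 23 higher in nuclei and 2 in cytoplasm, with a median of 0.69. With the nuclear arrays as 1 sample limma called 0 of them (6 at an unadjusted p under 0.05). Lmnb1, a B-type lamin, measured 7.42, 7.33 and 7.43 in nuclei and 4.90, 5.62 and 4.31 in cytoplasm, a difference of 2.45 ± 0.66 (adjusted p = 0.00818). Syne2, which links nuclei to the cytoskeleton, was higher in nuclei by 1.91 ± 0.29 (adjusted p = 0.000114), and Tpr, of the nuclear pore basket, by 1.78 ± 0.32 (adjusted p = 0.000534). The perinuclear anchor Akap6 was higher by 1.57 ± 0.34 (adjusted p = 0.00237) and Pde4dip by 1.41 ± 0.22 (adjusted p = 0.000158), and the pore protein Nup153 by 0.99 ± 0.32 (adjusted p = 0.0227, and 0.0879 with the block). Syne1, a relative of Syne2, measured 6.05, 6.40 and 6.64 in nuclei and 8.16, 6.91 and 7.85 in cytoplasm, with the cytoplasm above the nuclei on every array, a difference of -1.28 ± 0.36 (adjusted p = 0.00994).

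Immediate early genes, which are induced quickly by activity or stress, were higher in nuclei at 22 of 34 and in cytoplasm at 0, also at an unadjusted p under 0.05, with a median of 1.20. The count was 23 with the block and 2 with the nuclear arrays as 1 sample. Egr2 measured 9.46, 9.26 and 9.30 in nuclei and 7.23, 7.61 and 6.75 in cytoplasm, a difference of 2.15 ± 0.22 (adjusted p = 5.28e-06). Nr4a2, an orphan nuclear receptor, was higher in nuclei by 2.35 ± 0.29 and Egr3 by 2.27 ± 0.32, with adjusted p-values from 2.01e-05 to 7.5e-05. Nr4a3 was well above background in 0 cytoplasmic arrays and was at least 2.8-fold higher in nuclei (measured means 5.78 and 3.105, adjusted p = 4.34e-05). The AP-1 members Junb, Fos, Fosb and Jun were higher by 1.94 ± 0.32, 1.46 ± 0.36, 1.34 ± 0.33 and 0.98 ± 0.19, with adjusted p-values from 0.000245 to 0.00463. Egr1 measured 12.17, 12.07 and 12.10 against 11.50, 10.81 and 10.32, a difference of 1.24 ± 0.36 (adjusted p = 0.0121). Myc, a growth regulator, and the phosphatase Dusp1 were higher by 1.40 ± 0.28 and 1.01 ± 0.15, with adjusted p-values from 0.000121 to 0.00117.

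Circadian clock genes had 7 of 17 higher in nuclei and 0 in cytoplasm (1 at an unadjusted p under 0.05), with a median of 0.85, and 1 was called with the nuclear arrays as 1 sample. Per3 measured 7.34, 7.23 and 7.43 in nuclei and 4.02, 4.16 and 5.24 in cytoplasm, a difference of 2.86 ± 0.27 (adjusted p = 2.36e-06). Per1, a repressor of the loop, was higher in nuclei by 2.34 ± 0.62 (adjusted p = 0.00709), Arntl, its activator, by 1.77 ± 0.49 (adjusted p = 0.0092) and Cry2 by 1.02 ± 0.27 (adjusted p = 0.00708). Clock was at least 3.47-fold higher in nuclei, with measured means of 6.09 and 3.68 (adjusted p = 0.00347).

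Of 21 genes of giant muscle proteins, 12 were higher in nuclei and 1, Syne1, in cytoplasm, with a median of 0.94. With the nuclear arrays as 1 sample 2 were called. Dmd, which encodes dystrophin and is among the longest genes, measured 10.93, 10.84 and 10.96 in nuclei and 8.61, 9.17 and 7.72 in cytoplasm, a difference of 2.41 ± 0.32 (adjusted p = 4.22e-05), and 4 of its 5 probes were called. Ryr1, the calcium release channel, measured 12.23, 12.29 and 12.35 against 10.46, 9.99 and 9.94, a difference of 2.16 ± 0.25 (adjusted p = 1.21e-05). For both genes every nuclear array lay above every cytoplasmic one. Utrn, the dystrophin homologue utrophin, was higher in nuclei by 1.92 ± 0.20 and Ttn, titin, by 1.45 ± 0.19, with 4 of 4 titin probes called. Dysf, for membrane repair (1.32 ± 0.23), and Neb, nebulin (0.96 ± 0.17), were higher too, and the adjusted p-values of these 4 genes ran from 4.77e-06 to 0.000447.

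Contractile genes of slow fibers were higher in nuclei at 5 of 20 and in cytoplasm at 0 (25% in nuclei, against 19.1% of all genes), with a median of 0.63, and those of fast fibers at 5 of 17 and 0 (29.4%), with a median of 0.57. At an unadjusted p under 0.05 the cytoplasm had 0 of either list. With arrays scaled to the 75th percentile the fast genes split into 3 and 4. Myom3, an M-band protein of slow fibers, measured 12.47, 12.41 and 12.52 in nuclei and 10.18, 10.97 and 10.46 in cytoplasm, a difference of 1.93 ± 0.21 (adjusted p = 7.08e-06). Myh7b was higher in nuclei by 1.16 ± 0.21, Myh6 by 1.01 ± 0.33 and Mybpc1 by 1.00 ± 0.19, with adjusted p-values from 0.000501 to 0.0233. Tnnc1, slow troponin C, was higher by 0.91 ± 0.28 (adjusted p = 0.0161). For Myh7 the difference was 0.67 ± 0.44 (adjusted p = 0.234) and for the slow light chain Myl2 0.03 ± 0.33 (adjusted p = 0.953), at -0.06 and -0.78 with arrays scaled to the 75th percentile.

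Of the fast genes, Myh1 (1.62 ± 0.32, adjusted p = 0.00111), Myom2 (1.56 ± 0.18, adjusted p = 1.43e-05), Mylk2 (0.83 ± 0.25, adjusted p = 0.0153) and Myl1 (0.57 ± 0.19, adjusted p = 0.0218) were higher in nuclei. The last was at -0.14 with arrays scaled to the 75th percentile, and its adjusted p was 0.115 with the block. Myh4, the fastest myosin heavy chain, measured 10.48, 10.44 and 10.61 in nuclei and 11.59, 7.29 and 7.36 in cytoplasm. Cytoplasm 1 lay above all nuclear arrays and the other two far below them. The difference was 1.76 ± 0.74 and not called (adjusted p = 0.0668), and without cytoplasm 1 it was 3.19 (adjusted p = 4.16e-08). Pvalb, a calcium buffer of fast fibers, measured 14.73, 14.25 and 14.76 against 14.76, 12.90 and 11.44, a difference of 1.55 ± 0.53 (adjusted p = 0.0282, and 0.0964 with the block). Without cytoplasm 1 it was 2.39 (adjusted p = 0.000125), without cytoplasm 2 1.48 (adjusted p = 0.0571) and without cytoplasm 3 0.75 (adjusted p = 0.156).

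The counts for housekeeping and metabolic transcripts moved with the processing. Nuclear-encoded subunits of the respiratory chain had 47 of 81 higher in nuclei and 2 in cytoplasm, Cox6b2 and Cox4i2, with a median of 0.52. With arrays scaled to the 75th percentile the counts were 16 and 3, and with the block 13 and 0. With the nuclear arrays as 1 sample limma called 0 (10 at an unadjusted p under 0.05). Cox7c measured 12.73, 12.70 and 12.80 in nuclei and 11.58, 11.81 and 11.72 in cytoplasm, a difference of 1.04 ± 0.14 (adjusted p = 5.68e-05), while Ndufa4 was higher in nuclei by 1.14 ± 0.25 and Uqcrc2 by 1.01 ± 0.18. Cytosolic ribosomal proteins had 22 of 81 and 0, with a median of 0.42, but 2 and 1 with arrays scaled to the 75th percentile, 1 and 0 with the block and 34 and 1 without soleus cytoplasm 2. Rpl7 was higher in nuclei by 0.82 ± 0.15 (adjusted p = 0.000676, and 0.0524 with the block). Mitochondrial ribosomal proteins had 19 of 78 higher in nuclei (7 with the block) and a median of 0.38, as for Mrpl3 at 1.47 ± 0.19 (adjusted p = 3.51e-05). In cytoplasm limma called 0 genes of either ribosomal list, and at an unadjusted p under 0.05 0 and 1. The nuclear shares were 27.2% for cytosolic and 24.4% for mitochondrial ribosomal proteins, not far from the 19.1% of all genes.

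Genes of fatty acid oxidation had 8 of 23 higher in nuclei and 0 in cytoplasm (1 at an unadjusted p under 0.05), with a median of 0.60 (5 with arrays scaled to the 75th percentile). Etfdh, Decr1 and Acadvl, which are enzymes of that route, were higher in nuclei by 1.24 ± 0.30, 1.07 ± 0.29 and 1.04 ± 0.32. Glycolysis had 7 of 19 and 0, with a median of 0.43, but 1 and 0 with the block, and 1 and 2 with arrays scaled to the 75th percentile. Phka1, a subunit of phosphorylase kinase, was higher in nuclei by 0.95 ± 0.23 (adjusted p = 0.00439) and Ldhb, a lactate dehydrogenase, by 0.81 ± 0.22 (adjusted p = 0.00798, and 0.0502 with the block). Proteasome subunits had 14 of 37 higher in nuclei and 2 in cytoplasm (7 and 2 with the block), with a median of 0.51, as for Psmd1 at 1.14 ± 0.26. Chaperones had 11 of 25 and 0, with a median of 0.64, and at an unadjusted p under 0.05 the cytoplasm had 0 glycolysis genes and 1 chaperone. Among the chaperones were Hsph1 (1.30 ± 0.27) and Dnajc3 (1.30 ± 0.26).

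**Figure D4:**
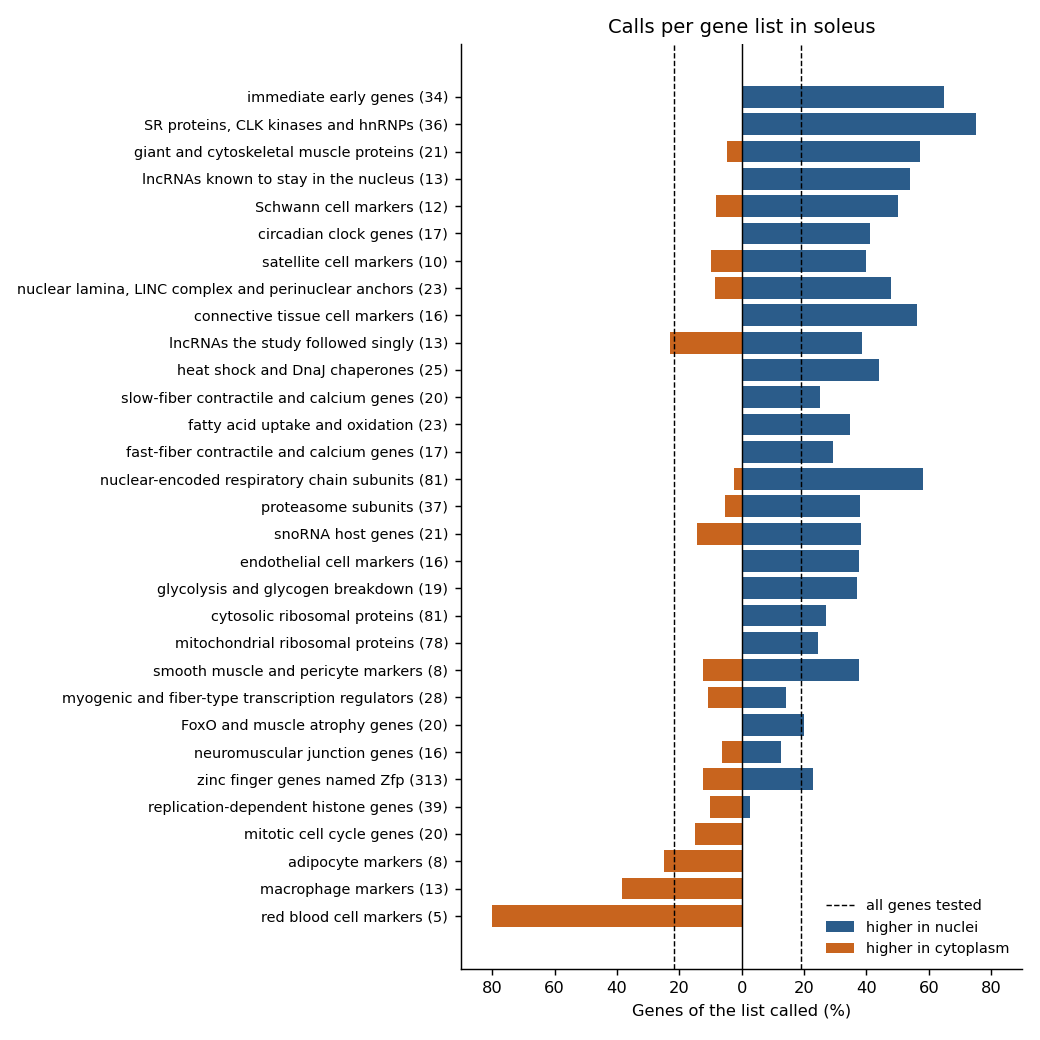
Share of the genes of each list called higher in soleus nuclei (bars to the right, %) or in soleus cytoplasm (bars to the left, %), with lists ordered by their median difference. Dashed lines mark the shares over all genes tested, 19.1% and 21.7%.

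Of 28 myogenic and fiber-type regulators 4 were higher in nuclei and 3 in cytoplasm (4 and 1 with the block), shares below those of all genes, with a median of 0.28. Ppargc1b, a coactivator of oxidative genes, was higher in nuclei by 1.50 ± 0.29 (adjusted p = 0.00093), the fiber-type factor Tbx15 by 0.96 ± 0.35, Esrra by 0.84 ± 0.24 and the calcineurin target Nfatc2 by 0.73 ± 0.14 (adjusted p = 0.00077, and 0.052 with the block). Myod1, the myogenic factor, measured 10.07, 9.66 and 9.01 in nuclei and 11.75, 9.71 and 10.89 in cytoplasm, ranges that overlap, and was higher in cytoplasm, with a difference of -1.20 ± 0.43 (adjusted p = 0.0367, and 0.0661 with the block). Tead4 was at -0.69 ± 0.19 (adjusted p = 0.00858, and 0.0589 with the block), and at 0.46 with no scaling. The neuromuscular junction list had 2 of 16 genes higher in nuclei (12.5%) and 1 in cytoplasm (6.25%), also below the shares of all genes. Lrp4, the agrin receptor, was at 1.00 ± 0.18 (adjusted p = 0.000395). Nrap, a gene of the fiber ends rather than of that junction, was at 1.20 ± 0.22 (adjusted p = 0.000502). Atrophy genes had 4 of 20 higher in nuclei (20.0%, near the 19.1% of all genes) and 0 in cytoplasm (1 at an unadjusted p under 0.05). These were the transcription factors Foxo1 (0.88 ± 0.21) and Foxo3 (0.87 ± 0.15), the autophagy kinase Ulk1 (0.95 ± 0.28) and the ubiquitin ligase Fbxo32 (0.57 ± 0.22, adjusted p = 0.0488, and 0.115 with the block).

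Mitotic genes were higher in nuclei at 0 of 20, also at an unadjusted p under 0.05, and in cytoplasm at 3 (15%), with a median of 0.10 that was -0.29 with arrays scaled to the 75th percentile. These shares lay below those of all genes, 19.1% in nuclei and 21.7% in cytoplasm. Ccnb1, a mitotic cyclin, measured 5.37, 5.55 and 5.70 in nuclei and 7.74, 6.79 and 7.11 in cytoplasm, a difference of -1.68 ± 0.28 (adjusted p = 0.000252), and the kinase Plk1 was at -1.29 ± 0.33 (adjusted p = 0.00577). Kif11, a spindle motor, was well above background in 0 nuclear arrays and was at least 1.34-fold higher in cytoplasm (measured means in nuclei and cytoplasm 2.87 and 4.42, adjusted p = 0.00175). Histone genes had 1 of 39 higher in nuclei (2.6%) and 4 in cytoplasm (10.3%), also below the shares of all genes, with a median of 0.11. H2bc6 was higher in cytoplasm, with a difference of -1.27 ± 0.24 (adjusted p = 0.000719), and so was the testis histone gene H1f6 with -1.33 ± 0.24 (adjusted p = 0.000541), while H2bc18 was at least 2.45-fold higher in nuclei (measured means 5.64 and 4.06, adjusted p = 0.0017).

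Genes named Zfp, which encode zinc finger proteins, had 72 of 313 higher in nuclei (23.0%) and 39 in cytoplasm (12.5%), with a median of 0.15, and 48 and 26 with the block. The shares of all genes were 19.1% and 21.7%. Zfp640 had the largest difference towards cytoplasm of this list: it measured 5.14, 5.26 and 6.12 in nuclei and 10.45, 9.08 and 9.43 in cytoplasm, a difference of -4.15 ± 0.43 (adjusted p = 5.09e-06). Zfp974 was at least 3.95-fold higher in nuclei (measured means 6.28 and 3.76, adjusted p = 4.17e-06), Zfp236 at least 1.82-fold (5.17 and 2.16, adjusted p = 0.000132), and Zfp777 was higher by 2.25 ± 0.51 (adjusted p = 0.00271). Zfp831 was at least 3.1-fold higher in cytoplasm (measured means in nuclei and cytoplasm 3.56 and 5.64, adjusted p = 2.84e-05) and Zfp37 at least 2.43-fold (3.46 and 5.32, adjusted p = 0.0203).

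Coding genes were ranked by 1 probe each among called probes with no overlap and with signal well above background on at least 1 array of each fraction, which leaves out genes with signal in nuclei alone. Of the 12 with the largest nuclear differences 6 had such signal on 1 cytoplasmic array and 2 on 2 of them. After Srsf11 came Btg1, an antiproliferative gene, which measured 9.12, 9.33 and 9.30 in nuclei and 3.62, 5.97 and 4.50 in cytoplasm, a difference of 4.55 ± 0.53 (adjusted p = 1.43e-05). Spidr, a DNA repair scaffold, measured 9.00, 8.99 and 8.91 against 4.37, 5.29 and 4.66, a difference of 4.19 ± 0.30 (adjusted p = 1.66e-07). At both of these probes the fractions were far apart, but the other Btg1 probe had a difference of 0.74 and was not called (adjusted p = 0.214). The difference was 3.83 ± 0.42 for the unnamed XM_001480574, 3.81 ± 0.36 for Lgals4, a galectin, 3.76 ± 0.48 for Fsd1l, 3.70 ± 0.56 for Zfp280d, 3.69 ± 0.34 for a further Pde4dip probe and 3.63 ± 0.64 for Abcc5, a membrane transporter. Ppp1r12b (3.55 ± 0.36), a myosin phosphatase subunit, Cxcr6 (3.49 ± 0.21), a chemokine receptor, and Etl4 (3.404 ± 0.17) completed the 12, and the adjusted p-values of these 9 ran from 7.61e-09 to 0.000532. The 4 Ppp1r12b probes ranged from 0.83 to 3.55, the 4 of Abcc5 from 0.08 to 3.63, the 3 tested ones of Etl4 from 0.76 to 3.404 and the 2 of Fsd1l from -0.45 to 3.76. In contrast the 3 Lgals4 probes lay between 3.26 and 3.81.

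Some probes were well above background only in nuclei, which need not hold for other probes of the same name. A probe of Svil, which encodes supervillin, had no value in cytoplasm, so that it was not tested, and its level was at least 19.4-fold higher in nuclei. XM_001480287 was at least 10.8-fold higher (measured means 7.73 and 3.98, adjusted p = 2.39e-06) and the ubiquitin ligase Nedd4 at least 9.4-fold (7.69 and 3.63, adjusted p = 5.9e-07). Among non-coding probes, the region chr12:110842154-110883594 in the Meg3 to Mirg domain was at least 14.9-fold higher (8.20 and 4.04, adjusted p = 4.99e-08) and the region chrX:47893703-47996700 at least 12-fold (7.88 and 3.95, adjusted p = 3.96e-07). The 2 tested Svil probes had differences of 1.03 and 1.57, and the 2 of Nedd4 0.76 and 4.06. The 2 probes of the chromosome 12 region were at 2.70 and 4.16, and the 8 tested ones of the chromosome X region ranged from -0.81 to 3.93. Of annotated lncRNAs with signal in both fractions, 1700109K24Rik measured 8.39, 8.41 and 8.60 in nuclei and 4.33, 5.18 and 2.63 in cytoplasm, a difference of 4.42 ± 0.64 (adjusted p = 0.00011), and Phxr4 was higher by 4.02 ± 0.45 (adjusted p = 1.1e-05). The region chr6:31115515-31168433 was higher by 4.04 ± 0.32 (adjusted p = 3.64e-07), and a region of the Neat1 locus at chr19:5834117-5835940 by 4.08 ± 0.56 (adjusted p = 5.2e-05). The pseudogenes Erdr1 (2.75 ± 0.45), Gm3086 (2.47 ± 0.32) and Mospd4 (2.43 ± 0.43) had the largest nuclear differences of the pseudogenes with signal in both fractions.

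Large differences towards cytoplasm were found at lincRNA regions. The region chr16:3111550-3130500 measured 5.35, 4.92 and 5.104 in nuclei and 12.56, 10.99 and 12.45 in cytoplasm, a difference of -6.87 ± 0.35 (adjusted p = 7.61e-09). Its neighbour chr16:3337275-3355950 measured 6.14, 5.99 and 6.43 against 13.28, 11.91 and 13.03, a difference of -6.55 ± 0.30. At both, cytoplasm 2 was the lowest cytoplasmic array and still far above the nuclei. The regions chr5:15146475-15170100 (-6.56 ± 0.39) and chr7:67001975-67050575 (-6.56 ± 0.52) and a region on chromosome 18 (-6.68 ± 0.42) had differences of similar size. All 4 tested probes of the chromosome 5 region and all 5 of the chromosome 7 region were higher in cytoplasm.

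Among coding genes Speer4a, Speer4b and Speer4d, of a testis gene family with near-identical copies, stood beside several predicted genes. Speer4a measured 6.47, 6.73 and 6.43 in nuclei and 12.13, 11.13 and 11.87 in cytoplasm, a difference of -5.16 ± 0.25 (adjusted p = 7.61e-09), while Speer4d was at -5.34 ± 0.29 and Speer4b at -5.203 ± 0.28. The pseudogene Speer5-ps1 was at -5.17 ± 0.25. The predicted genes Gm9758 (-5.87 ± 0.32), Gm6541 (-5.76 ± 0.40), Gm7339 (-5.69 ± 0.46), Gm16506 (-5.06 ± 0.34), Gm6401 (-5.05 ± 0.39), Gm3079 (-5.02 ± 0.34), LOC624112 (-5.00 ± 0.32) and Gm8090 (-4.91 ± 0.50) had adjusted p-values from 9.44e-09 to 4.12e-06. Copies of such families can share a probe's signal, so their individual values are uncertain.

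At EG666692 0 nuclear arrays were well above background, and cytoplasm was at least 84.2-fold higher (measured means in nuclei and cytoplasm 3.35 and 10.40, adjusted p = 7.65e-08). The bound was 50-fold for LOC100046987 (2.88 and 9.65, adjusted p = 2.75e-08) and 44.8-fold for Gm8005 (3.85 and 9.52, adjusted p = 2.08e-08). It was 93.3-fold for the region chr7:66926500-66952100 (3.72 and 10.55, adjusted p = 2.62e-08) and 87.5-fold for a further probe of chr7:67001975-67050575 (2.85 and 10.45, adjusted p = 1.81e-08). Among those with signal well above background on at least 1 array of each fraction, the annotated lncRNAs with the largest cytoplasmic differences were 4933406F09Rik (-3.398 ± 0.47), Gm8212 (-3.36 ± 0.25), A530040E14Rik (-3.31 ± 0.34), 1810064F22Rik (-3.22 ± 0.43), Gm6566 (-2.93 ± 0.39) and Gm7056 (-2.88 ± 0.53). Of the pseudogenes with such signal, Gm2837 (-4.96 ± 0.41) and Gm2005 (-4.75 ± 0.68) came after Speer5-ps1.

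The size of the difference of Crygc, a lens crystallin, rested on 1 array. It measured 4.46, 4.33 and 4.42 in nuclei and 6.42, 15.41 and 6.24 in cytoplasm, with cytoplasm 2 far above all other arrays. The difference was -4.95 ± 1.56 (adjusted p = 0.0192, and 0.0798 with the block) and -1.93 without cytoplasm 2 (adjusted p = 0.000151).

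The 177 positioned probes with a difference below -4 were clustered in the genome. Of these, 65 were coding and 70 of lincRNA regions, 32 lay on chromosome 14, 31 on chromosome 7 and 28 on chromosome 5, and together they filled 62 windows of 1 Mb. A run of at least 30 bases shared with a probe of another name was found in 58 of them (32.8%), against 1698 of all 43376 positioned probes tested (3.91%). In the window from 42 to 43 Mb of chromosome 14, 10 of 10 probes were higher in cytoplasm, with a median of -4.98. From 14 to 15 Mb of chromosome 5 it was 17 of 18 with a median of -3.47, from 43 to 44 Mb of chromosome 14 21 of 23, and from 85 to 86 Mb of chromosome 1 31 of 42. Windows with several such probes were not always this one-sided, as from 66 to 67 Mb of chromosome 7, with 10 of 34. In EDL, from the same mice and on the same slides, 165 of the 177 were tested, and all 165 had the same sign there.

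The 176 probes above 3 were spread over 127 windows. They held 59 coding probes, 78 of lincRNA regions and 11 of annotated lncRNAs, with 19 on chromosome 6 and 14 on chromosome 19, and 7 (3.98%) shared such a run with a probe of another name. From 31 to 32 Mb of chromosome 6, the nuclei were higher at 32 of 58 probes and the cytoplasm at 6. From 85 to 86 Mb of chromosome 17 it was 17 of 25 and 0, and from 68 to 69 Mb of chromosome 15 it was 12 of 16 and 0 with a median of 2.27.

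The difference moved with the base composition of the probe and the length of the gene, whose part in the results was not tested. Coding probes of 35% to 40% GC were higher in nuclei at 33.3% and in cytoplasm at 10.9%, with a median of 0.47, and those of 55% GC or more at 12.8% and 19.3%, with a median of -0.08. In lincRNA regions the median was 0.04 at 35% to 40% GC and -0.42 at 50% to 55%. Probes of coding genes under 3000 bases in the genome were higher in nuclei at 10.0% and in cytoplasm at 30.3% (median -0.30), and those of genes of 100000 to 300000 bases at 34.9% and 10.4% (median 0.50). For longer genes the shares were 27.0% and 15.7% (median 0.24). Probes of one name did not always share a direction. Of 1138 coding genes with 2 or more called probes 206 (18.1%) had calls in both directions, as had 305 of 1445 lincRNA regions (21.1%). The region chr9:43738583-43757007 had 2 probes higher in nuclei and 3 in cytoplasm, from -2.55 to 3.00, and chr6:116092274-116144199 had 4 and 1, from -1.52 to 4.02.

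Markers of other cells of muscle also differed between the fractions. The samples are fractions of pooled fibers, so the number of such cells and their RNA per cell cannot be told apart. Red blood cell markers were higher in cytoplasm at 4 of 5 and in nuclei at 0, with a median of -1.37. The summed linear intensity of the list was 6809 to 7381 in nuclei and 13921 to 31014 in cytoplasm, with the highest value in cytoplasm 2, and without that array 3 were called. With no scaling limma called 1 in nuclei and 0 in cytoplasm (1 and 1 at an unadjusted p under 0.05). Hba-a1, an alpha globin, measured 12.64, 12.52 and 12.57 in nuclei and 13.70, 14.63 and 13.53 in cytoplasm, a difference of -1.37 ± 0.24 (adjusted p = 0.000389), and the beta globin Hbb-b2 was at -1.83 ± 0.30 (adjusted p = 0.000208). Macrophage markers were higher in cytoplasm at 5 of 13 and in nuclei at 0, with a median of -0.53 that was 0.52 with no scaling, where 4 were higher in nuclei and 0 in cytoplasm by limma (6 and 0 at an unadjusted p under 0.05), and sums of 32916 to 42467 in nuclei and 39280 to 42760 in cytoplasm. Tyrobp, a signalling adaptor of myeloid cells, measured 6.99, 7.04 and 7.07 against 8.86, 8.85 and 8.51, a difference of -1.71 ± 0.23 (adjusted p = 5.55e-05). Of 8 adipocyte markers 2, Adipoq (-1.52 ± 0.54, adjusted p = 0.0333) and Retn, were higher in cytoplasm (25%, near the 21.7% of all genes). The median of this list was -0.31, and 0.30 with no scaling, where limma called 3 in nuclei and 0 in cytoplasm (the same counts at an unadjusted p under 0.05). Its sums were 6387 to 6643 in nuclei and 5655 to 7601 in cytoplasm, and Lep was well above background on 0 soleus arrays.

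Connective tissue markers were higher in nuclei at 9 of 16 (4 with the block), with a median of 0.68 and sums of 86357 to 89838 in nuclei and 44733 to 62672 in cytoplasm. Col6a2 was higher by 1.37 ± 0.27 (adjusted p = 0.0011) and Col1a1 by 0.74 ± 0.23 (adjusted p = 0.0204, and 0.0603 with the block). Endothelial markers were higher in nuclei at 6 of 16 (2 with the block), with a median of 0.45 and sums of 17174 to 18611 in nuclei and 12474 to 20815 in cytoplasm. Vwf was at 1.28 ± 0.18 (adjusted p = 5.69e-05), Kdr at 0.67 ± 0.26 (adjusted p = 0.0495, and 0.145 with the block) and Pecam1 at 0.10 ± 0.21 (adjusted p = 0.734). Schwann cell markers had 6 of 12 higher in nuclei and 1 in cytoplasm, with sums of 2949 to 3200 in nuclei and 1658 to 2197 in cytoplasm, and with Sox10, a glial transcription factor, at 1.01 ± 0.23 and Prx at least 2.8-fold higher (measured means 5.78 and 3.52). Satellite cell markers had 4 of 10 and 1, with sums of 3038 to 3639 in nuclei and 2943 to 5058 in cytoplasm, but Myf5 and Calcr were well above background on 0 soleus arrays. Smooth muscle markers had 3 of 8 and 1, with sums of 48736 to 49400 in nuclei and 46022 to 49850 in cytoplasm, Myh11 at 1.14 ± 0.16 and Cnn1 at -1.46 ± 0.17. The part of these cells in the differences of other genes was not tested.

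The differences between the fractions of soleus were compared with those of EDL, whose arrays lay on the same slides. By the labels, EDL and soleus pools of the same number came from the same mice, so EDL is no independent set of animals. The fits did not pair mice across muscles. In EDL 47.5% of probes were called, and the difference of the differences was called at 12 of 41888 probes (0.0286%), 8 of them larger in soleus (0.0191%) and 4 smaller (0.00955%). By limma with the block or with the nuclear arrays as 1 sample 0 were called (2893 and 373 at an unadjusted p under 0.05), and where signal well above background was required it was 0 (2126 unadjusted). Leaving out any one nuclear array left 1, leaving out cytoplasm 1 gave 30 and leaving out cytoplasm 3 gave 38. Gm12680, an unclassified transcript, measured 3.93, 3.80 and 3.74 in nuclei and 6.79, 5.56 and 5.69 in cytoplasm in soleus. Its soleus difference was -2.19 ± 0.35 and its EDL difference 2.51 ± 0.35, which differed by -4.70 ± 0.50 (adjusted p = 0.00298). The region chr4:129497990-129515290 was at 2.31 ± 0.25 in soleus and -0.24 ± 0.25 in EDL (adjusted p = 0.0249). The regions chr8:71891610-71924216 (1.04 ± 0.21 and -1.10 ± 0.21, adjusted p = 0.0249), chr8:49853937-49874087 (1.13 ± 0.27 and -1.54 ± 0.27, adjusted p = 0.0254) and chr1:78591605-78606083 (0.27 ± 0.18 and -1.58 ± 0.18, adjusted p = 0.0249) followed. Gm12680 was well above background in 0 arrays of soleus nuclei and was at least 4.02-fold higher in soleus cytoplasm. The regions on chromosome 4 and at chr8:49853937-49874087 were well above background in 0 arrays of soleus cytoplasm and at least 1.9-fold and 1.39-fold higher in soleus nuclei, and the latter was also in 0 arrays of EDL nuclei. The sizes of these differences between muscles are therefore uncertain.

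Against TA, whose arrays lay mostly on other slides and where 53.4% of probes were called between the fractions, the difference of the differences was called at 1759 of 41366 probes (4.25%), 1288 larger (3.11%) and 471 smaller in soleus (1.14%). Thus 73.2% were larger in soleus, against 47.2% with arrays scaled to the 75th percentile and 99.5% with no scaling. The count was 286 with the block, 331 with a weight per group and 0 with the nuclear arrays as 1 sample (1402 by limma at an unadjusted p under 0.05). Myh6, a myosin heavy chain known from heart, had a further probe at 11.85, 11.85 and 12.04 in nuclei and 9.39, 9.50 and 8.73 in cytoplasm in soleus, a difference of 2.71 ± 0.20 against -0.01 ± 0.20 in TA (adjusted p = 0.000682). The region chr17:85418489-85427364 was at 3.19 ± 0.21 against 0.39 ± 0.21, the region chr13:23517278-23523756 at 2.39 ± 0.38 against -2.73 ± 0.38 and Sbk3, a kinase gene, at 0.24 ± 0.21 against -2.49 ± 0.21, each with limma's adjusted p = 0.000682. The region on chromosome 13 was well above background in 0 arrays of soleus cytoplasm, and was at least 3.06-fold higher in soleus nuclei, and it was well above background in 0 arrays of TA nuclei. Xist (6.71 ± 0.81 against 1.72 ± 0.81, adjusted p = 0.0257) and Dnm3os (3.81 ± 0.25 against 1.88 ± 0.25, adjusted p = 0.00936) differed more between the fractions of soleus. Clk1 (1.70 ± 0.36 against 3.93 ± 0.36, adjusted p = 0.0242) and Dusp1 (1.01 ± 0.15 against 2.79 ± 0.15, adjusted p = 0.00113) differed less. Xist and Dnm3os were among the annotated lncRNAs with the largest nuclear differences in soleus, and those differences enter this comparison. By the labels, same-numbered fractions of TA did not come from the same set of mice, so the block did not pair mice there. Some TA pools shared a mouse with the soleus pools. Muscle and slide cannot be told apart in this comparison.

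**Figure D5:**
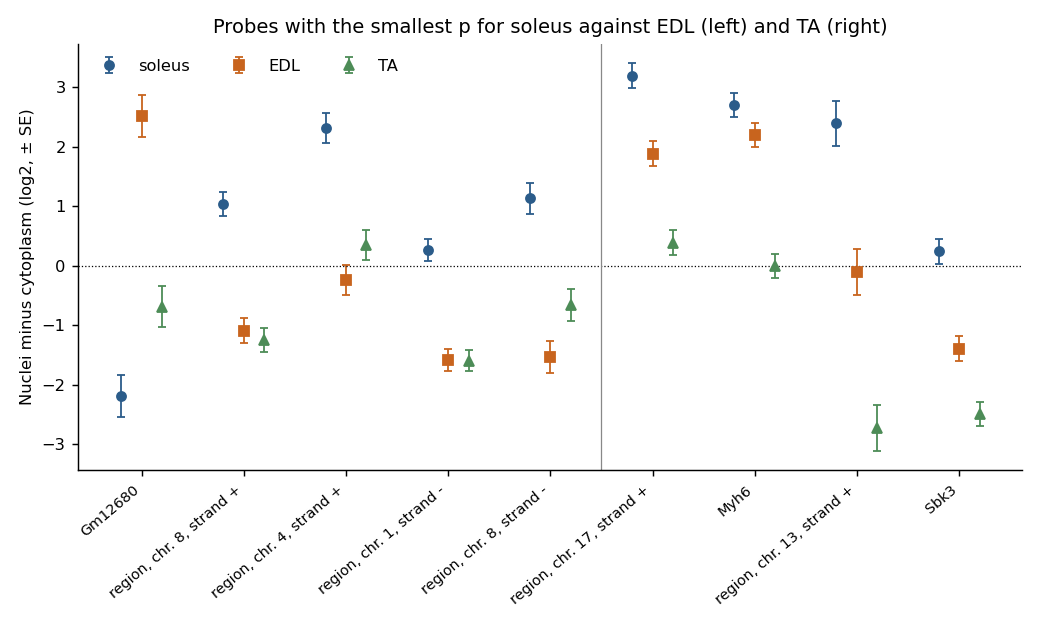
Difference of nuclei minus cytoplasm (y axis, log2, error bars 1 SE) in soleus, EDL and TA at the 5 probes with the smallest p for soleus against EDL (left) and at 4 of the 5 for soleus against TA (right). Gm12680 is below 0 in soleus (-2.19) and above 0 in EDL (2.51), and the 4 probes on the right are all higher in soleus than in TA.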

How the data were processed

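RNA of nuclei and cytoplasm from soleus, EDL and TA fibers was labelled with Cy3 and hybridised to 1-colour Agilent arrays. The deposited scanner files, made by the authors with Agilent Feature Extraction 10.7.3.1, hold the background-corrected intensity of each spot. The authors also deposited a table of normalized intensities, of which log2 was taken here and 3668 probes could be tested. As in the study's methods, log2 of the processed signal was taken for spots that were no controls and had a positive and significant signal. Outlier spots were left out, all 18 arrays were quantile-normalized together, and spots of a probe name were averaged. Probes with values on at least 2 of 3 arrays in each group were tested in limma 3.58.1 (R 4.3.3) with 6 group means and adjustment by Benjamini and Hochberg, called under 0.05. The methods name Significance Analysis of Microarrays, which was run as an alternative. Figures and tables used Python 3.11.15, pandas 2.3.3, numpy 2.4.6 and matplotlib 3.10.9. The scripts were tested on simulated data.

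Probe classes came from a RefSeq mouse table matched by accession or symbol, with 24424 of 55681 probe names unmatched, most of which are lincRNA regions of the array. Positions are those of the array (mm9). A gene list was read at the probe of each gene with the highest mean over the soleus arrays. Besides list members, the text names the 12 coding genes, 6 annotated lncRNAs, 5 lincRNA regions and 3 pseudogenes with the largest difference each way among called probes whose fractions did not overlap and which were well above background on at least 1 array of each fraction, 1 probe per gene. It also names 3 coding and 3 non-coding probes each way with the largest bound, 5 probes with the smallest p in each comparison of muscles (of which 1 is not reported here), and the 10 names whose probes differed most, of which a part is given. A bound ("at least N-fold") was given where 0 arrays of a fraction were well above background, against the lowest signal among probes well above background on each array or the probe's own, whichever was higher. The members and lists were chosen with earlier results of these data known.

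Same-numbered fractions of soleus came from the same mice by the labels, which is the source of the pairing. The deviations of same-numbered arrays from their group means correlated at 0.033, 0.010 and -0.014 over 39139 probes. By the labels, the 3 soleus pools came from different pairs of mice. In the main fit each probe had a single estimate of spread, shared by the groups of soleus, EDL and TA. The SE and p-values therefore do not measure the spread between the soleus pools alone. For probes on several spots, the soleus nuclear arrays differed by 0.574 times the SD between spots of 1 array. Whether their spread reflects differences between pools was not tested. Alternatives covered the scaling, the background, the filters on dim and outlier spots, the deposited values, the variance model, the test, the pairs as a block, the nuclear arrays as 1 sample and each soleus array left out.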

Additional observations from a re-analysis of the deposited data

Results flagged for a closer look

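The difference of nuclei minus cytoplasm in soleus differed from that in another muscle, by limma's test of the difference itself, at 38 of the named probes and comparisons. Over all probes tested the shares called were 0.0286% against EDL and 4.25% against TA. The probes against EDL, and some of those against TA, were named for their smallest p in these comparisons, so their calls follow from that choice. Others, such as Xist, Dnm3os, Lgals4 and EG666692, were named among those with the largest differences or bounds in soleus. The soleus difference is a part of the value tested, so a larger size in soleus can follow in part from that choice. Each value below is the soleus difference minus that of the other muscle in log2, followed by both differences. For Zfp974, EG666692, LOC100046987, Gm8005, another XIST probe, a region on chromosome 18, chr7:67001975-67050575, Gm12680, chr4:129497990-129515290, chr1:78591605-78606083, chr8:49853937-49874087 and chr13:23517278-23523756, a fraction of soleus or of the other muscle was well above background on 0 arrays, so that the values are those of the fit and their sizes are uncertain. Against EDL, Gm12680 by -4.70 (-2.19 against 2.51), chr8:71891610-71924216 by 2.13 (1.04 against -1.10), chr4:129497990-129515290 by 2.56 (2.31 against -0.24), chr1:78591605-78606083 by 1.85 (0.27 against -1.58) and chr8:49853937-49874087 by 2.67 (1.13 against -1.54) differed, with adjusted p-values from 0.00298 to 0.0254.

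Against TA, lncRNAs with a larger value in soleus were Xist by 5.00 (6.71 against 1.72), Ftx by 1.18 (0.92 against -0.26), Dnm3os by 1.93 (3.81 against 1.88), an XIST probe by 3.55 (5.50 against 1.95), another XIST probe by 4.74 (6.91 against 2.18), a further XIST probe by 4.25 (4.23 against -0.01) and Airn by 1.20 (3.04 against 1.84). Other genes with a larger value were Zfp974 by 1.88 (2.52 against 0.64), Lgals4 by 2.01 (3.81 against 1.80), Ppp1r12b by 2.05 (3.55 against 1.50), Cxcr6 by 1.82 (3.49 against 1.67), Etl4 by 1.36 (3.404 against 2.05), Gm3086 by 3.06 (2.47 against -0.60), Myh6 by 2.71 (2.71 against -0.01) and Sbk3 by 2.73 (0.24 against -2.49). The lincRNA regions were chr8:71891610-71924216 by 2.29 (1.04 against -1.25), chr4:129497990-129515290 by 1.96 (2.31 against 0.35), chr1:78591605-78606083 by 1.86 (0.27 against -1.60), chr8:49853937-49874087 by 1.79 (1.13 against -0.66), chr17:85418489-85427364 by 2.81 (3.19 against 0.39) and chr13:23517278-23523756 by 5.12 (2.39 against -2.73).

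Values were smaller in soleus than in TA for the markers of other cells Hba-a1 by -1.68 (-1.37 against 0.31), Hbb-b2 by -2.55 (-1.83 against 0.72), Pecam1 by -1.46 (0.10 against 1.56) and Myh11 by -1.03 (1.14 against 2.17). They were also smaller for Clk1 by -2.23 (1.70 against 3.93), Dusp1 by -1.78 (1.01 against 2.79), EG666692 by -2.52 (-7.05 against -4.53), LOC100046987 by -2.23 (-6.77 against -4.54) and Gm8005 by -1.999 (-5.67 against -3.67), and for the regions chr16:3337275-3355950 by -1.98 (-6.55 against -4.57), a region on chromosome 18 by -2.31 (-7.22 against -4.91) and chr7:67001975-67050575 by -2.60 (-7.61 against -5.01). The adjusted p-values against TA ran from 0.000682 to 0.0438. With the nuclear arrays as 1 sample limma called 0 probes in either comparison, and 373 and 1402 at an unadjusted p under 0.05.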

How the results depend on the processing

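The count of 17989 probes called between the soleus fractions was 27443 with no scaling, 1185 of 3668 with the deposited values, in which fewer probes could be tested, and 1724 with the nuclear arrays as 1 sample. The other settings gave 13509 to 21177, and leaving out single arrays 13376 to 20702. With the mouse pairs as a replicate block it was 13551, and of the named genes 16 lost their call and 1 gained one. The 12 probes of soleus against EDL became 25 with 75th percentile scaling, 708 with no scaling, 39 with normexp background, 0 with signal well above background required, 85 with no filter on dim spots, 19 with values on 3 of 3 arrays, 5 with the deposited values, and by limma 0 with the replicate block and 0 with the nuclear arrays as 1 sample (2893 and 373 at an unadjusted p under 0.05), or 1 to 38 without single arrays. The 1759 of soleus against TA became 20461 with no scaling, 137 with the deposited values, 331 with a weight per group, 286 with the replicate block and 0 with the nuclear arrays as 1 sample. Without single arrays it was 608 to 2858, namely 608 to 725 without any one nuclear array and 2858 without cytoplasm 3. The block joined same-numbered TA fractions, which did not come from the same set of mice.

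Of 194 named probes, 180 kept their direction and side of the threshold with 75th percentile scaling, 171 with no scaling, 191 with normexp background and 87 with the nuclear arrays as 1 sample. Under 75th percentile scaling the sign turned for H19 (-0.17), Myh7 (-0.061), Myl2 (-0.78) and Myl1 (-0.14), and with no scaling for Igf2os (0.50), 2310065F04Rik (0.37) and Tead4 (0.46). Leaving out single arrays gave -0.086 to 0.16 for Myl2 and -0.040 to 0.18 for Pecam1, each lowest and below 0 without cytoplasm 3. The causes of these changes were not tested. Probes near background limit the folds to bounds, and the number of arrays limits every error.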
